A study of Mus musculus with 4 samples.

Results

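The proteasome is the protease that degrades proteins tagged with ubiquitin, and the genes of its constitutive form were examined here in mouse intestinal tumor organoids after inhibition of DNA methylation. Genes were taken by symbol, as every named probe whose symbol begins with Psma to Psmg followed by a digit. The interferon-inducible genes Psmb8, Psmb9, Psmb10, Psme1 and Psme2 were left out. The choice used no measured value, and it gave 36 of the 15716 genes that had a named probe and a deposited value. Each of the 36 was read by 1 probe and had a value on all 4 arrays. By known role, 12 belong to the 20S core, 9 to the base and 8 to the lid of the 19S regulator, 3 are assembly chaperones, 1 is an activator, 1 an inhibitor and 1 a testis form of a core subunit. Psmc3ip, a meiotic recombination protein, matched the rule by its name and is no proteasome subunit. No named probe was matched to Psma5, Psmb3, Psme3, Psmb11 or the chaperones Psmg1, Psmg2, Psmg3 and Psmg4, which were not analysed here.

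The 20S core is a barrel of stacked rings. The outer alpha rings gate the entrance, and the inner beta rings hold the proteolytic sites of Psmb5, Psmb6 and Psmb7. The 19S regulator caps the barrel: its base contains a ring of ATPases that unfold the substrate, and its lid removes the ubiquitin chain. When interferon acts on a cell, Psmb8, Psmb9 and Psmb10 are made and take the places of Psmb5, Psmb6 and Psmb7 in newly assembled cores, which gives the immunoproteasome. The constitutive subunits are housekeeping genes of intestinal epithelium as of other tissues, and the transcription factor Nrf1, encoded by Nfe2l1, raises them together when proteasome activity is short.

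All 4 cultures were tumor organoids, epithelial structures grown in Matrigel, from polyps of ApcMin mice (Apc Min/+), which are heterozygous for a mutant allele of the tumor suppressor Apc. One culture received 1 μM 5-Aza-CdR, a cytidine analogue that traps DNA methyltransferases, for the first day, and its RNA was taken at day 4, against an untreated control culture. Another carried a lentiviral shRNA against Dnmt1, the maintenance DNA methyltransferase, against a culture with the empty lentiviral vector, which the labels call a mock control and the methods a shRNA control, named control shRNA here. Both lentiviral cultures were selected with puromycin, and the RNA was taken at day 9 after infection. Each condition had 1 array, so the spread between replicates is unknown and no test was made. The sources do not state from how many mice or organoid lines the RNA came.

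The values are deposited intensities: the spot signal less the signal of blank spots, scaled by the authors to a median of 25 on each array. They are in arbitrary units, and levels were compared between arrays for 1 gene at a time, apart from the sums over marker genes. Between 81.2% and 92.9% of 23473 probes were listed on an array. Dnmt1 had 368 with 5-Aza-CdR against 239 in the untreated control, and 71.7 with Dnmt1 knockdown against 126 in the control shRNA culture. The paper states that Dnmt1 was significantly lower when RNA was taken in both experiments. On these arrays Dnmt1 was above its control after 5-Aza-CdR. The 5 epithelial marker genes found summed to 11244 with 5-Aza-CdR and 10373 in the untreated control, and to 5157 with Dnmt1 knockdown and 5703 with control shRNA. Tacstd1 (Epcam) alone gave 2684 to 7627 of this, while the epithelial marker Krt19 was dim (3.11 to 6.71). The 7 endothelial markers summed to at most 43.3 on an array, and Ptprc, which defines leukocytes, stood between 2.41 and 4.84. The 12 immune markers found summed to 611 with 5-Aza-CdR and 485 in the untreated control, against 379 with Dnmt1 knockdown and 416 with control shRNA. Most of this came from Cd14 (169 to 318) and Cd68 (67.5 to 194), so not all immune markers were dim. The 9 mesenchymal markers summed to 153 with 5-Aza-CdR, most of it from Acta2 (83.7), and to 85.0 in the untreated control, against 60.2 with Dnmt1 knockdown and 46.5 with control shRNA.

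After 5-Aza-CdR the constitutive proteasome genes stayed close to the untreated control. The median log2 ratio of the 36 genes was 0.13, with a range of -0.20 to 0.83 and an SD over genes of 0.27. Relative to the median of all named genes (0.17) it was -0.039. On spot signals corrected by normexp and quantile normalized, the median of the 36 genes was 0.10 and lay 0.11 above that of all named genes, so the side depended on the scale. Of the 36, 24 lay above 0 and 12 below, and 24 were within 1.2-fold of the untreated control. Of all 14922 named genes detected on both arrays, 9998 lay above 0 and 6980 were within 1.2-fold. At least 1.5-fold higher were 2 genes, Psmc1 and Psmd2, and none was 1.5-fold lower. In bulk RNA, fewer cells of a type and less RNA per cell cannot be told apart. Among all 14922 named genes detected on both arrays, 16.3% were 1.5-fold higher and 5.40% lower. Most of the proteasome genes were bright, so the nearer background is the 4559 genes with an intensity of at least 100 on both arrays: 11.4% of these were higher and 4.80% lower, with a median of 0.14 and an SD of 0.46. Of the 4559, 2928 lay above 0 and 2269 were within 1.2-fold. The 34 proteasome genes in this range had a median of 0.16 and an SD of 0.26, with 24 above 0 and 22 within 1.2-fold. The share called was thus no higher than the background.

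With Dnmt1 knockdown the same genes were closer still to their control. The median log2 ratio over control shRNA was 0.04, the range -0.23 to 0.34 and the SD 0.14. Relative to the median of all named genes it was -0.13. On the normexp scale the median of the 36 genes was -0.013, and it differed from that of all named genes by -0.0084. None of the 36 was 1.5-fold higher or lower, and 32 were within 1.2-fold. Of all 13571 named genes detected on both arrays, 14.6% were 1.5-fold higher and 2.77% lower, with a median of 0.17. Of the 3694 bright genes, 3.22% were higher and 1.87% lower, with a median of 0.04 and an SD of 0.31. Within 1.2-fold were 6838 of the 13571, 2588 of the 3694, and 28 of the 32 proteasome genes among the bright ones. At the rates of the bright genes hardly any of 36 genes would be called, so the lack of calls is not a result about the proteasome. A measure of what a single probe can carry comes from the 22 genes with several bright probes. The SD between the log2 ratios of their probes was 0.28 in the drug comparison and 0.13 in the knockdown comparison. Ratios smaller than these are within the disagreement between probes.

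**Figure D1:**
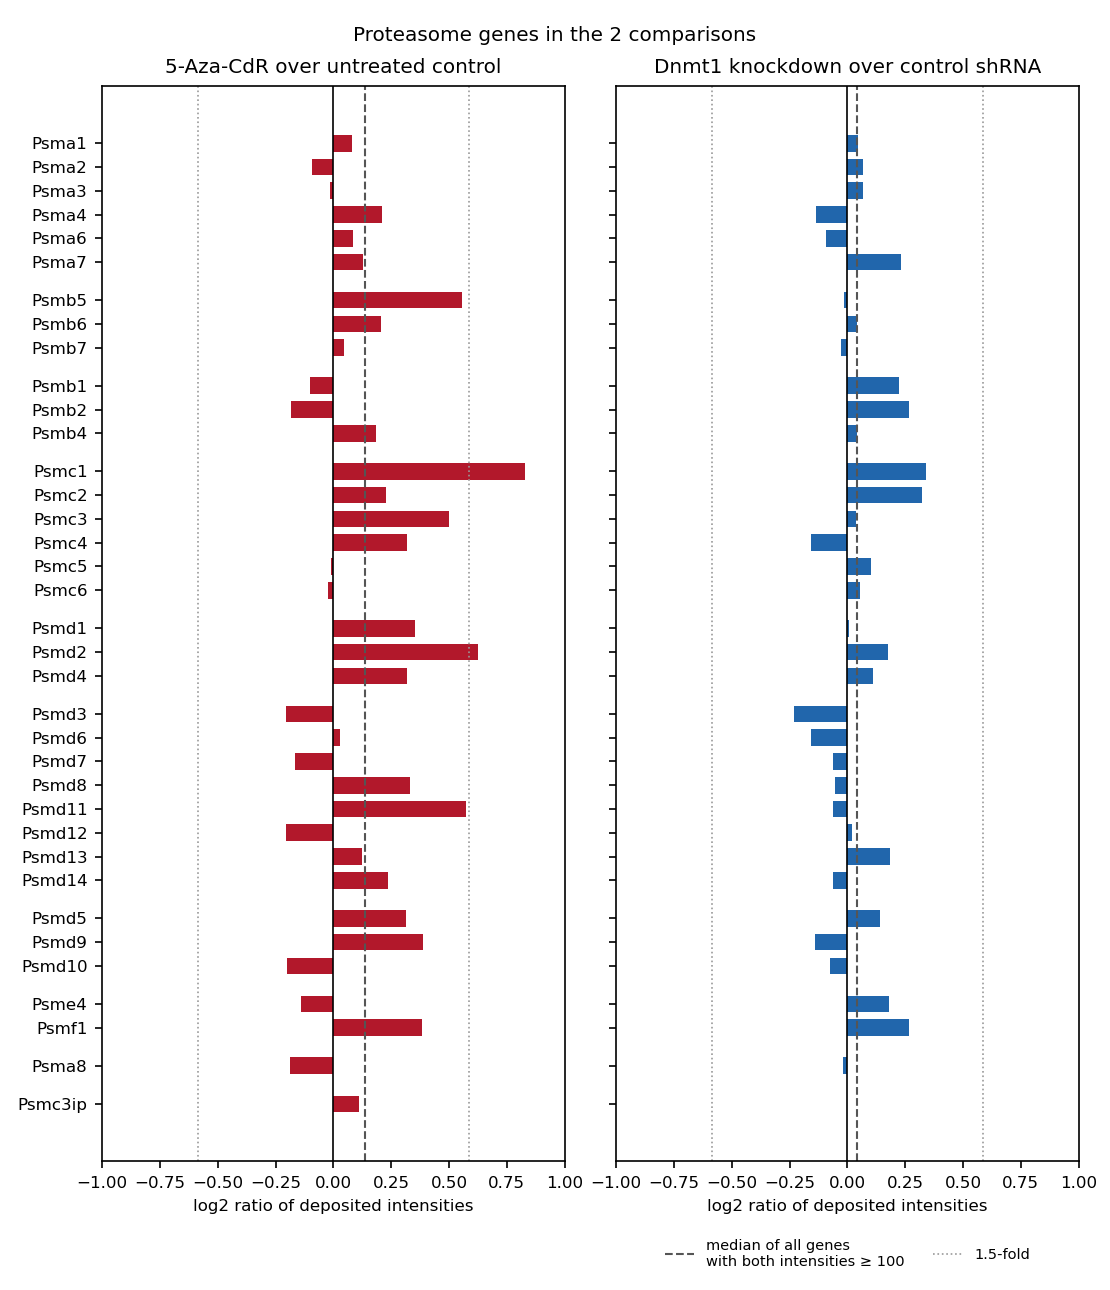
Log2 ratio of the deposited intensities for each of the 36 genes, 5-Aza-CdR over untreated control on the left and Dnmt1 knockdown over control shRNA on the right, 1 array per condition. Genes are grouped by role from the alpha ring at the top to Psmc3ip at the bottom, the dashed line is the median of all bright genes and the dotted lines mark 1.5-fold: only Psmc1 (0.83) and Psmd2 (0.63) pass a dotted line, both on the left.

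**Figure D2:**
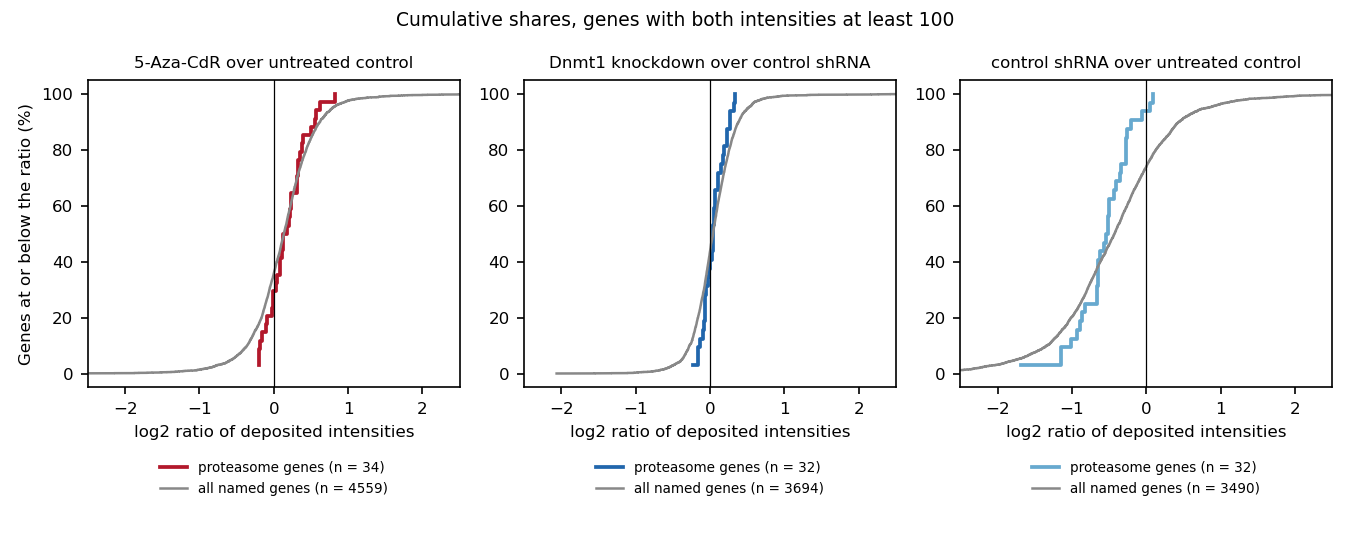
Cumulative share of genes (percent) at or below each log2 ratio, for the proteasome genes (colored) and all named genes (gray) with both intensities at least 100, without the most extreme genes. In the left and middle panels both curves cross near the same median (left 0.16 and 0.14, middle 0.04 and 0.04), and the colored one is steeper.

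Both treatments act on DNA methylation, so some promoters are shown. They are those of Psmc1 and Psmd2, which passed 1.5-fold after 5-Aza-CdR, and of the catalytic pair Psmb5 and Psmb8. Psmd11, whose ratio (0.57) was above that of Psmb5 (0.55), is not shown. RefSeq promoters of GRCm38.p6, 300 bases spanning the transcription start and mostly upstream of it, were found for 29 of the 36 genes, with 31 promoters. None was matched for Psma8, Psmb1, Psmb2, Psmb7, Psmc3, Psmd3 and Psmd7. The sequences of Psmc1 (chr12:100109952-100110251, plus strand), Psmd2 (chr16:20651402-20651701, plus strand), Psmb5 (chr14:54617946-54618245, minus strand) and the inducible partner of Psmb5, Psmb8 (chr17:34197945-34198244, plus strand), follow with each CpG dinucleotide in capitals.
Psmc1: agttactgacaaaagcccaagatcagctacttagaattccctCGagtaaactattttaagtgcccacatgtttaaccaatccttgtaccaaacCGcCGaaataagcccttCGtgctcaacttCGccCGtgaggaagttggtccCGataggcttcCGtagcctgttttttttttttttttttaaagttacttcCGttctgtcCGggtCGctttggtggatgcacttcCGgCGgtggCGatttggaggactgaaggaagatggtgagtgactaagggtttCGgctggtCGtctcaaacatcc
Psmd2: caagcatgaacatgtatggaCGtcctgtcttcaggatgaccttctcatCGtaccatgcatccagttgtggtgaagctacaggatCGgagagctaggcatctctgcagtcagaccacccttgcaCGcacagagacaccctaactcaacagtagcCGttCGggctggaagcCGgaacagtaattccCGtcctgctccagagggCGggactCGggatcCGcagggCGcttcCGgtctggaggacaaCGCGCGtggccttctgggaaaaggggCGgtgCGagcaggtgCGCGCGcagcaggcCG
Psmb5: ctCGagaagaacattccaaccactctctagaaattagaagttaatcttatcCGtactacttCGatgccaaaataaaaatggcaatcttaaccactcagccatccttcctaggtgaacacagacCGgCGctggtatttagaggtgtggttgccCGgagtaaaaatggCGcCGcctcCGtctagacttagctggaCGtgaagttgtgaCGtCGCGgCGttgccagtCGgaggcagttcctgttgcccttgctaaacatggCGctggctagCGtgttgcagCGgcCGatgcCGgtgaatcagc
Psmb8: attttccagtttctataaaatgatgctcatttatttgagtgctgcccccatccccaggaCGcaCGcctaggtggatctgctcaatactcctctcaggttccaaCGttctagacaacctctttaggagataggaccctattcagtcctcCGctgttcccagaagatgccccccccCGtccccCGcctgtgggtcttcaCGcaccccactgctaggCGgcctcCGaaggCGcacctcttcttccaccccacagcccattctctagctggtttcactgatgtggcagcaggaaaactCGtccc
They hold 16, 22, 20 and 11 CpG dinucleotides in this order.

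Over the 31 promoters of proteasome genes the median was 20 CpG dinucleotides, against 16 over the 12011 promoters of genes with a deposited value and 7 over all 32851 promoters. At least 10 were present in 30 of the 31 (96.8%), against 65.3% of the promoters of measured genes. The range ran from 3 for 1 of 2 promoters of Psma6 to 41 for Psma7. The ETS motif CCGGAAG was found on either strand in 13 of 31 promoters (41.9%), against 12.5% of the promoters of measured genes and 8.86% of all. The genes with it were Psma6, Psmc1, Psmc2, Psmc3ip, Psmc6, Psmd2, Psmd4, Psmd6, Psmd11, Psmd12, Psmd13 and Psme4. This motif itself holds a CpG, and the promoters compared were not matched for CpG content. The core of the antioxidant response element, TGACNNNGC, to which Nrf1 and Nrf2 bind, was in 6 (19.4%), against 13.7% and 12.4%. Those 6 belonged to Psmb5, Psmb6, Psmc6, Psmd9, Psmd12 and Psme4. The interferon-stimulated response element, searched as 2 copies of GAAA with 2 bases between them, was in 2 (6.45%), Psmd4 and Psmd9, against 3.10% and 3.44%. CCAAT was in 11 (35.5%) against 37.0% and 37.4%, and TATAAA in 3 (9.68%) against 10.3% and 13.6%. All motifs were searched on both strands and none contains another. A match describes the sequence only. DNA methylation at these promoters was not measured.

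**Figure D3:**
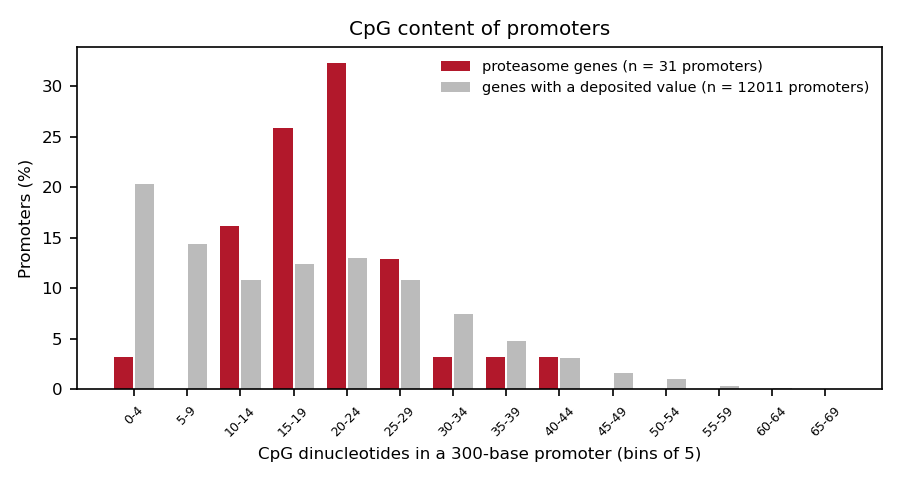
Number of CpG dinucleotides in a 300-base promoter (x axis, bins of 5) and the percentage of promoters in each bin (y axis), for 31 promoters of proteasome genes (red) and 12011 promoters of genes with a deposited value (gray). The red bars are concentrated between 10 and 29 CpG, while the gray bars have their highest value in the lowest bin.

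The 3 catalytic subunits of the 20S core had different ratios after 5-Aza-CdR. Psmb5, the chymotrypsin-like site, had an intensity of 4146 with 5-Aza-CdR against 2823 in the untreated control, and 1966 with Dnmt1 knockdown against 1986 with control shRNA. Its log2 ratios were 0.55 and -0.01, so that Psmb5 stood above its control in the drug-treated culture and at its control in the knockdown. Psmb6, the caspase-like site, had 3194 with 5-Aza-CdR against 2770 in the untreated control, and 2010 with Dnmt1 knockdown against 1955 with control shRNA (log2 ratios 0.21 and 0.04). Psmb7, the trypsin-like site, had 1058 with 5-Aza-CdR against 1025 in the untreated control, and 314 with Dnmt1 knockdown against 320 with control shRNA (0.05 and -0.03). RefSeq lists pseudogenes for Psmb5, Psmb6 and Psmb7, and whether the probes also bind their transcripts was not tested.

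Set beside them, the interferon-inducible partners were above their controls in both comparisons. After 5-Aza-CdR, Psmb10 (0.91) was little higher than the constitutive Psmc1 (0.83). Psmb8, which replaces Psmb5, had 483 with 5-Aza-CdR against 67.5 in the untreated control, and 34.1 with Dnmt1 knockdown against 5.04 with control shRNA (2.84 and 2.76). Psmb9, which replaces Psmb6, had 234 with 5-Aza-CdR against 77.8 in the untreated control, and 62.2 with Dnmt1 knockdown against 11.7 with control shRNA (1.59 and 2.41). Psmb10, which replaces Psmb7, had 569.8 with 5-Aza-CdR against 304 in the untreated control, and 226 with Dnmt1 knockdown against 81.8 with control shRNA (0.91 and 1.47). The control shRNA values of Psmb8 (5.04) and Psmb9 (11.7) were dim, on an array with a median of 25 and a lowest listed value of 1.03. Inducible and constitutive genes of a pair parted in each comparison. The log2 ratio of Psmb8 exceeded that of Psmb5 by 2.28 after 5-Aza-CdR and by 2.77 in the knockdown. For Psmb9 and Psmb6 the excess was 1.39 and 2.37, and for Psmb10 and Psmb7 it was 0.86 and 1.49. The inducible genes were also far lower with control shRNA than in the untreated control. Their log2 ratios between these 2 controls were -3.74 (Psmb8), -2.73 (Psmb9) and -1.89 (Psmb10), against a median of -0.49 over all named genes. With Dnmt1 knockdown they were thus above control shRNA but below the untreated control. Psme1, a subunit of the interferon-inducible activator ring, had 2461 with 5-Aza-CdR against 1719 in the untreated control, and 617 with Dnmt1 knockdown against 429 with control shRNA (0.52 in each comparison). Between the 2 controls it too was lower with control shRNA (-2.00). Psme2 had no named probe.

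**Figure D4:**
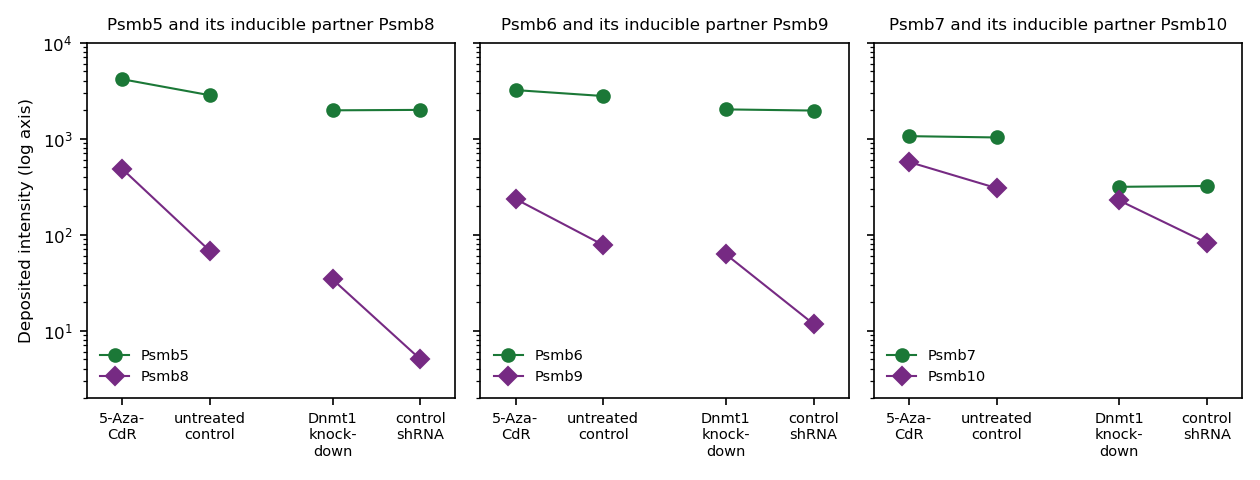
Deposited intensity (log axis, array units) of each constitutive catalytic subunit (green circles) and its interferon-inducible partner (purple diamonds) on the 4 arrays, 1 array per condition; lines join the arrays of 1 comparison. The green lines are close to level, with Psmb5 at 4146 and 2823 the steepest, while all purple lines slope down toward the control, as for Psmb8 at 483 and 67.5.

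The other beta subunits, which carry no active site but complete the ring, were on either side of their controls. Psmb1 had 2892 with 5-Aza-CdR against 3106 in the untreated control, and 2316 with Dnmt1 knockdown against 1982 with control shRNA (log2 ratios -0.10 and 0.22). Psmb2 had 1865 with 5-Aza-CdR against 2117 in the untreated control, and 2129 with Dnmt1 knockdown against 1772 with control shRNA (-0.18 and 0.26). Both were a little below the control with the drug and a little above it in the knockdown. Psmb4 had 3909 with 5-Aza-CdR against 3442 in the untreated control, and 2265 with Dnmt1 knockdown against 2203 with control shRNA (0.18 and 0.04).

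The 6 alpha ring subunits, which form the gated entrance of the core, were close to their controls. Their log2 ratios ran from -0.09 (Psma2) to 0.21 (Psma4) with 5-Aza-CdR, median 0.08, and from -0.14 (Psma4) to 0.23 (Psma7) with Dnmt1 knockdown, with a median of 0.06. Psma4 had 1514 with 5-Aza-CdR against 1307 in the untreated control, and 982 with Dnmt1 knockdown against 1079 with control shRNA. Psma7 had 1952 with 5-Aza-CdR against 1786 in the untreated control, and 1551 with Dnmt1 knockdown against 1321 with control shRNA (0.13 and 0.23). The drug and the knockdown thus had different subunits at the top of a narrow range, and both medians were below 0 when all named genes were centred (-0.08 and -0.11). Psma1 (0.08 and 0.05), Psma3 (-0.01 and 0.07) and Psma6 (0.08 and -0.09) were nearer still to their controls. Psma8, the alpha subunit of testis proteasomes, was dim on all 4 arrays, with 4.94 for 5-Aza-CdR and 5.63 for the untreated control, and 3.24 for Dnmt1 knockdown and 3.28 for control shRNA (-0.19 and -0.02).

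The base of the 19S regulator held both genes that passed 1.5-fold after 5-Aza-CdR. Psmc1, an ATPase whose tail helps to open the core gate, had 2304 with 5-Aza-CdR against 1297 in the untreated control, a 1.78-fold difference and a log2 ratio of 0.83. With Dnmt1 knockdown Psmc1 had 899.9 against 711 with control shRNA (0.34), the highest ratio of the 36 genes there too. Of the bright genes, 4.32% had a ratio at least as high as Psmc1 after 5-Aza-CdR, and 12.8% in the knockdown. Psmd2, a scaffold that docks ubiquitin shuttle proteins, had 958 with 5-Aza-CdR against 620.3 in the untreated control, a 1.54-fold difference (0.63), and 348 with Dnmt1 knockdown against 308 with control shRNA (0.17). Psmd2 was just inside the limit, and 9.74% of the bright genes had a ratio as high. On the normexp scale Psmc1 had 0.73, Psmd2 had 0.46 and no longer passed, and Psmb5 passed with 0.60, so that Psmc1 alone was past 1.5-fold on both scales.

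The remaining base genes were mostly above their controls, by less. Psmc3, an ATPase that also docks to the core, had 2107 with 5-Aza-CdR against 1492 in the untreated control (0.50), and 964 with Dnmt1 knockdown against 939 with control shRNA (0.04). Psmc2, another ATPase of the ring, had 1689.6 with 5-Aza-CdR against 1445 in the untreated control (0.23), and 1735 with Dnmt1 knockdown against 1386 with control shRNA (0.32). Psmc4 had 724 with 5-Aza-CdR against 580.4 in the untreated control (0.32), and 337 with Dnmt1 knockdown against 377 with control shRNA (-0.16). The order of these 3 ATPases differed between the comparisons. Their 5-Aza-CdR ratios lay within 0.28 of each other, the SD between bright probes, so their order there is not read. Psmc5 (-0.01 and 0.10) and Psmc6 (-0.02 and 0.05) stood at their controls. The scaffold Psmd1 had 0.35 and 0.01, and the ubiquitin receptor Psmd4 had 0.32 and 0.11. In all, 7 of 9 base genes lay above 0 after 5-Aza-CdR, with a median of 0.32, and 7 of 9 also did after centring (median 0.15) and on the normexp scale (0.22). Before centring, 9998 of all 14922 named genes lay above 0. In the knockdown 8 of 9 lay above 0 with a median of 0.10, against 3 of 9 after centring (-0.06) and 6 of 9 on the normexp scale (0.045). There 9307 of all 13571 named genes lay above 0 before centring.

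Among the 8 lid genes the ratios were spread over both sides of 0. Psmd11, which clamps the lid to the core, had 1877 with 5-Aza-CdR against 1263 in the untreated control (0.57), and 774 with Dnmt1 knockdown against 809 with control shRNA (-0.06). It was just outside the 1.5-fold limit with the drug. Psmd3, a structural lid subunit, was below its control in both comparisons, with 882 for 5-Aza-CdR against 1016 for the untreated control (-0.20) and 390.3 for Dnmt1 knockdown against 458 for control shRNA (-0.23). Psmd12, also structural, had 643 with 5-Aza-CdR against 741 in the untreated control (-0.20), and 477 with Dnmt1 knockdown against 469.7 with control shRNA (0.02). The lid thus included the 2 lowest core, base or lid genes of the 5-Aza-CdR comparison and 1 of its highest. Psmd6 had 504 with 5-Aza-CdR against 494 in the untreated control (0.03), and 365 with Dnmt1 knockdown against 407 with control shRNA (-0.16). Psmd14, the deubiquitinase that removes the chain, had 856 with 5-Aza-CdR against 726 in the untreated control (0.24), and 718 with Dnmt1 knockdown against 749.7 with control shRNA (-0.06). Its partner Psmd7 had -0.17 and -0.06, Psmd8 had 0.33 and -0.05, and Psmd13 had 0.12 and 0.19. The lid median after 5-Aza-CdR was 0.08, but -0.09 after centring and -0.06 on the normexp scale. In the knockdown it was -0.06 with 6 of 8 genes below 0, and 7 of 8 were below 0 after centring (-0.23) and on the normexp scale (-0.12). Before centring, 4245 of all 13571 named genes were below 0 there.

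Chaperones of base assembly were measured through 3 genes. Psmd9 had 157 with 5-Aza-CdR against 119.6 in the untreated control (0.39), and 54.5 with Dnmt1 knockdown against 60.0 with control shRNA (-0.14). Psmd10, also known as gankyrin, had 296 with 5-Aza-CdR against 340.0 in the untreated control (-0.20), and 218 with Dnmt1 knockdown against 229 with control shRNA (-0.07). Psmd5 had 359 with 5-Aza-CdR against 289 in the untreated control (0.31), and 340.1 with Dnmt1 knockdown against 308 with control shRNA (0.14). No chaperone was 1.5-fold from its control, from which nothing is read with 3 genes. Psmf1, an inhibitor of the core in vitro, had 300.04 with 5-Aza-CdR against 229.9 in the untreated control (0.38), and 125 with Dnmt1 knockdown against 104 with control shRNA (0.27). Psme4, an activator that caps the core in place of the 19S regulator, had 55.9 with 5-Aza-CdR against 61.7 in the untreated control (-0.14), and 91.6 with Dnmt1 knockdown against 80.8 with control shRNA (0.18). The inhibitor was above its control in both comparisons and the activator in 1. Psmc3ip had 119.8 with 5-Aza-CdR against 111.0 in the untreated control, and 83.3 on both lentiviral arrays.

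Psmc1 was among 13 genes above 0 in both comparisons, and Psmd3 among 4 below 0 in both. Another 11 were above 0 with 5-Aza-CdR and below with Dnmt1 knockdown, and 8 the other way. These are 36.1%, 11.1%, 30.6% and 22.2% of the 36 genes, and of the 3377 named genes with at least 100 on all 4 arrays the same patterns held 39.3%, 18.95%, 24.4% and 17.4%. Nothing about the proteasome genes is read from these counts. None passed 1.5-fold in both, which follows from the lack of any such gene with Dnmt1 knockdown.

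In the deposited values the 2 control cultures lay farther apart than either treatment and its control. There 33 of the 36 genes were lower with control shRNA than in the untreated control, with a median log2 ratio of -0.53 and a range of -1.68 (Psmb7) to 0.39 (Psme4). Of all 13584 named genes, 9927 were lower. At least 1.5-fold lower were 16 of the 36 and none was higher, against 45.3% lower and 11.8% higher among the 13584, whose median was -0.49. In 31 genes (86.1%) both lentiviral arrays were below both other arrays, as in 56.8% of all 13455 named genes with 4 values and 62.7% of the 3377 with at least 100 on all 4. The sign of this shift depended on the scaling: after normexp correction and quantile normalization the median of the 36 genes was 0.09, 15 lay below 0 and only Psmb7 (-1.07) was 1.5-fold lower. Psmb7 was thus lower with control shRNA than in the untreated control on both scales. The summed epithelial markers were lower with control shRNA as well (5703 against 10373), mostly through Tacstd1 (3466 against 7627). Of the 5 markers 4 were lower, and Cldn7 was higher (859 against 803). Their part in the shift was not tested. The control cultures also differ in virus, selection and time in culture, which cannot be told apart, and each control enters its own treatment comparison.

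**Figure D5:**
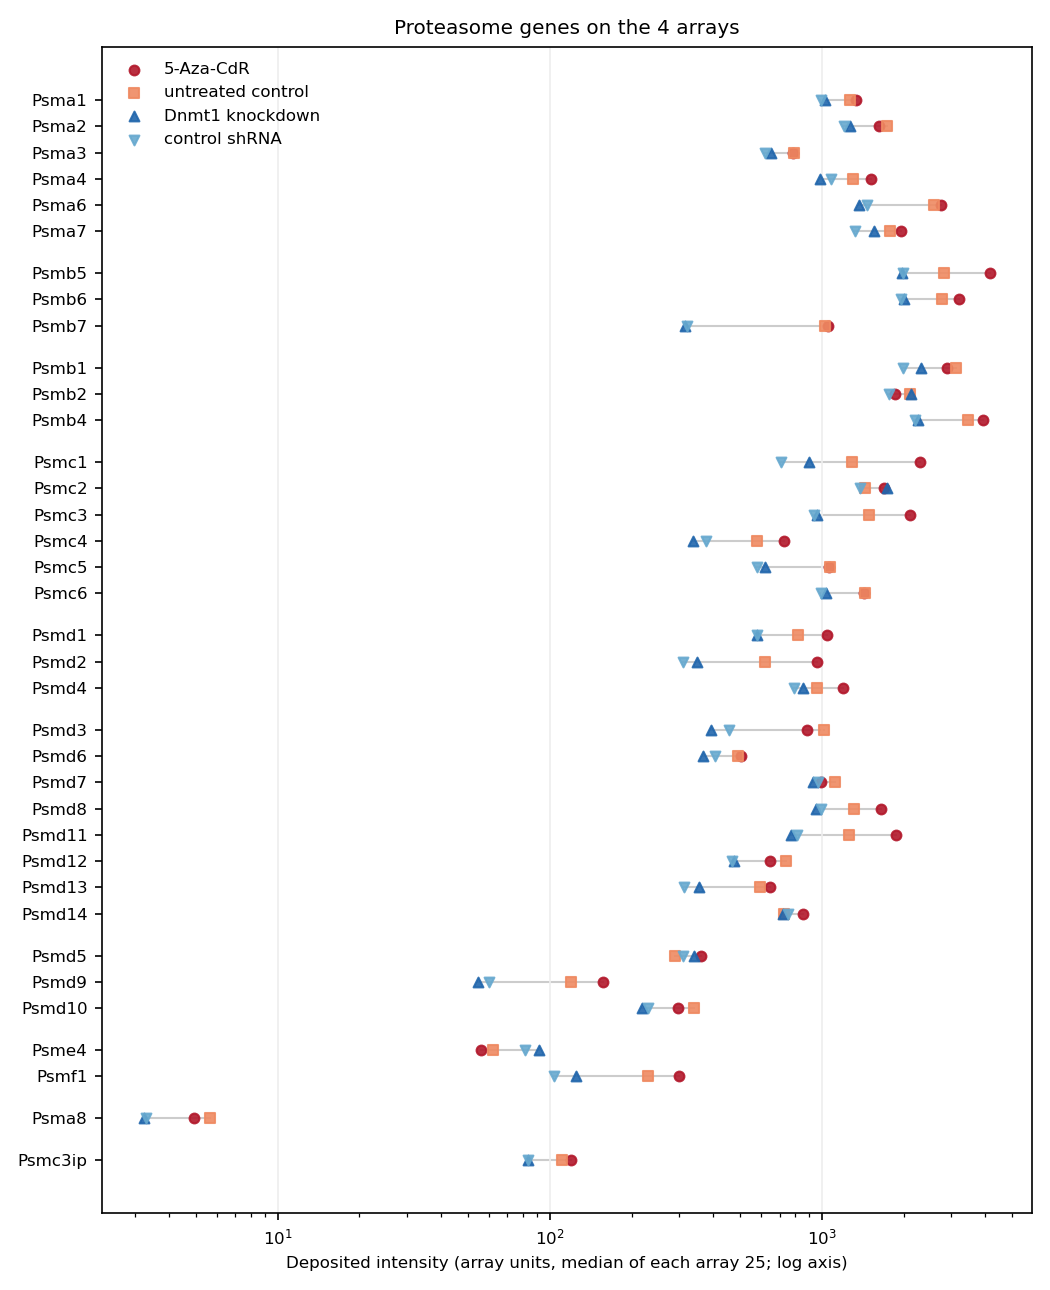
Deposited intensity (log axis, array units) of the 36 genes on the 4 arrays, 1 array per condition, in the same order by role; gray lines span the 4 values of a gene. For most genes the symbols fall into a left pair (Dnmt1 knockdown and control shRNA) and a right pair (5-Aza-CdR and untreated control), as for Psmb7 at 314 and 320 against 1058 and 1025, and the distance within a pair is small except for Psmc1 and a few others.

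The genes that act around the proteasome were read from lists chosen by function. Of 14 symbols of other proteasome genes, older names included, 7 were found. None of these was 1.5-fold from its control in either comparison, from which nothing is read in so short a list. The list had medians of 0.08 (5-Aza-CdR) and 0.02 (Dnmt1 knockdown). Adrm1, a ubiquitin receptor of the base, had 414 with 5-Aza-CdR against 279.9 in the untreated control (0.56), and 225 with Dnmt1 knockdown against 169 with control shRNA (0.41). Uchl5, the deubiquitinase that Adrm1 recruits, had 526 with 5-Aza-CdR against 439.8 in the untreated control (0.26), and 304 with Dnmt1 knockdown against 432 with control shRNA (-0.51). Receptor and enzyme lay on the same side in the first comparison and on opposite sides in the second. Of the 4 genes of the Nrf1 axis, 2 were 1.5-fold higher after 5-Aza-CdR and none in the knockdown, with medians of 0.60 and -0.14. Of the bright genes 11.4% were so high after 5-Aza-CdR, and of all named genes 16.3%. Nfe2l1, which encodes Nrf1, had 239 with 5-Aza-CdR against 147 in the untreated control (0.70), and 123 with Dnmt1 knockdown against 128 with control shRNA (-0.06). Ngly1, the glycanase that processes Nrf1, had 121 with 5-Aza-CdR against 76.4 in the untreated control (0.67), and 111.2 with Dnmt1 knockdown against 116 with control shRNA (-0.06). These 2 were the genes past 1.5-fold, but relative to the median of all named genes (0.17) neither passed. Of the bright genes, 7.28% had a ratio at least as high as Nfe2l1 and 8.38% as Ngly1. Ngly1, at 76.4 in the untreated control, was itself not among the bright genes. Nfe2l2, which encodes Nrf2, had 0.53 and -0.21, and Ddi2, the protease that cleaves Nrf1, had 25.7 with 5-Aza-CdR against 26.2 in the untreated control (-0.03), and 11.2 with Dnmt1 knockdown against 13.1 with control shRNA (-0.23).

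Upstream of the proteasome, no listed gene was 1.5-fold from its control in either comparison. Among all named genes, 16.3% were 1.5-fold higher and 5.40% lower with 5-Aza-CdR, and 14.6% and 2.77% with Dnmt1 knockdown. At such rates few genes of these short lists would be called, so nothing is read from the lack of calls. Both ubiquitin-activating enzymes found, of 8 symbols in the list, were above the untreated control with 5-Aza-CdR and below control shRNA with Dnmt1 knockdown. Ube1l2 (Uba6) had 28.3 with 5-Aza-CdR against 19.9 in the untreated control (0.51), and 59.2 with Dnmt1 knockdown against 67.9 with control shRNA (-0.20). Ube1x (Uba1) had 946 with 5-Aza-CdR against 779 in the untreated control (0.28), and 232 with Dnmt1 knockdown against 319.6 with control shRNA (-0.46). Of the shuttle factors that carry ubiquitinated proteins to the proteasome, 4 of 6 symbols were found. Rad23b had 40.5 with 5-Aza-CdR against 27.3 in the untreated control (0.57), and 54.5 with Dnmt1 knockdown against 57.2 with control shRNA (-0.07). Ubqln4 had 181 with 5-Aza-CdR against 134 in the untreated control (0.43), and 135 with Dnmt1 knockdown against 91.1 with control shRNA (0.57). Different shuttle factors thus had the highest ratio in the 2 comparisons. Of 11 symbols of the p97 segregase and its cofactors 6 were found, with medians of 0.14 and -0.02, and the cofactor Nploc4 had the ratios farthest from 0. Its values were 24.6 with 5-Aza-CdR against 16.9 in the untreated control (0.54), and 5.92 with Dnmt1 knockdown against 7.41 with control shRNA (-0.32).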

How the data were processed

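RNA of 4 organoid cultures was hybridized to 1 Toray array each in a single color (Cy5). The methods name a mirVana kit for RNA extraction and the labels an RNeasy kit. The authors deposited 1 intensity per probe. It could be recomputed, for at least 99.99% of values within 1%, as a factor (0.554 to 0.829) times the spot signal minus the mean of 2736 blank spots, with 5% trimmed at each end; dim values were left empty by the authors. The spot signals and local background intensity of the deposited scanner files were used for alternatives only. Genes were named by the platform annotation: 16631 probes had 1 symbol and 6842 were unnamed here. Probe sequences were not used here.

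Log2 ratios were taken between deposited intensities listed on both arrays, with no pseudocount. Of several probes of a gene (174 genes), the one with the highest mean log2 intensity was kept. A gene was called at 1.5-fold, and bright at an intensity of at least 100 on both arrays. The local background was not subtracted, since it was at a median 25.2% to 63.6% of the signal at the spots of proteasome genes and correlated with the signal over all spots (correlation of logs 0.83 to 0.96). With 1 array per condition no model was fitted, and the number of arrays limits the precision. Named with full values were the catalytic subunits, the 5 highest and 5 lowest genes of each comparison, the activator, the inhibitor, Psmc3ip, the inducible genes, and of each other list the gene with the largest ratio in each comparison; others were added by role. The genes and lists were chosen with earlier results of these data known.

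Alternatives were normexp correction (offset 50 or 16) with quantile normalization in limma 3.58.1 (R 4.3.3), centring on the median of all named genes, 75th percentile scaling, other filters, the mean of several probes, only core, base and lid genes, and a 2-fold limit. Subtraction of the local background was added after the data had been seen. The counting was tested on simulated data. Ratios, counts and figures were made in Python 3.11.15 (matplotlib 3.10.9, scipy 1.17.1, pandas 2.3.3, numpy 2.4.6). The 36 symbols are current RefSeq symbols, and the promoter table of GRCm38.p6 was used.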

Additional observations from a re-analysis of the deposited data

How the results depend on the processing

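Centring on the median of all named genes moved the median log2 ratio of the 36 genes to -0.039 with 5-Aza-CdR and -0.13 with Dnmt1 knockdown, both below 0, and left 1 gene past 1.5-fold with 5-Aza-CdR. Scaling to the 75th percentile gave a median of 0.0199 and 1 gene with 5-Aza-CdR. With a 2-fold limit 0 genes passed with 5-Aza-CdR. Normexp correction with quantile normalization, either offset, kept 2 genes but not the same ones: Psmd2 was replaced by Psmb5. The other filters, the mean of several probes and the restriction to core, base and lid genes kept both medians and counts within the limits set for a change. The direction of genes near 0 was not settled: centring put 7 of 36 ratios with 5-Aza-CdR and 12 with Dnmt1 knockdown on the other side of 0, and normexp put 4 and 4. Normexp also lowered the calls over all named genes with 5-Aza-CdR to 398 higher and 371 lower, against 2433 and 806, and with Dnmt1 knockdown to 149 and 120, against 1982 and 376. Centring gave 1526 and 1271 with 5-Aza-CdR and 1184 and 731 with Dnmt1 knockdown.

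Subtracting the local background, tried after the data had been seen, gave 8 genes past 1.5-fold with 5-Aza-CdR (3 higher, 5 lower) and 10 with Dnmt1 knockdown (5 higher, 5 lower). Of 72 single ratios, 26 then moved by more than the SD between probes of a gene at any intensity (0.50 with 5-Aza-CdR, 0.35 with Dnmt1 knockdown), and none did under the planned settings. Against the SD between bright probes (0.28 and 0.13), it moved 15 of 36 ratios after 5-Aza-CdR and 26 of 36 in the knockdown. Of the planned settings, centring moved all 36 knockdown ratios past that SD, by 0.17 each, and the others none. Psmd11 had -0.39 in place of 0.57 with 5-Aza-CdR, and Psmd2 -1.33 in place of 0.17 with Dnmt1 knockdown. Psmc1 had 0.59 in place of 0.83 with 5-Aza-CdR, and 0.61 in place of 0.34 with Dnmt1 knockdown, where it then passed 1.5-fold. On the Dnmt1 knockdown array the local background was at or above the signal at 5 of 36 spots.

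No paired analysis was possible because each condition has 1 array.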
